A study of Mus musculus with 10 samples.

Results

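The 42 genes described here carry the KEGG pathway label for DNA replication in the deposited expression table, out of 29583 rows and 22036 rows with an Ensembl identifier; no row without an Ensembl identifier carried it. Of these, 35 encode known replication proteins. They are 6 subunits of the MCM helicase and 4 each of polymerase alpha-primase, polymerase delta and polymerase epsilon. With them are 6 genes of the sliding clamp and its RFC loader, 4 single-strand binding proteins and 7 enzymes of flaps, RNA primers and ligation. The other 7 of the 42 carry the label through their best match in KEGG and are described apart. The RNA came from MC3T3-E1, a mouse line of osteoblast precursors from newborn skull, labelled as strain C57BL/6 and, as source, as bone marrow mesenchymal stem cells. The cells grew in medium with 0, 100, 150 or 200 µM of the plant sterol β-ecdysterone over 5 or 10 days. Of 10 libraries, 6 were treated (1 for each dose and day), 2 were at 0 µM (1 for each day) and 2, A-5 and B-4, were labelled only as untreated, with no time. RNA was extracted from dishes of one cell line, so that the doses stood in as replicates of treated cells and p-values measure the spread between these libraries, which may be technical.

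Libraries held between 27108562 and 58218009 counts. Levels are given as CPM, counts scaled to the TMM-adjusted library size, and a count of 0 allows up to 3 counts, or 0.0499 to 0.118 CPM. Such limits cover counting error only. Levels of different genes were compared in FPKM, which also divides by transcript length. Count ratios of subunits were compared only between libraries, and limits of depth and summed marker levels were read in CPM. Treated cells were compared with cells at 0 µM in edgeR by a quasi-likelihood test that took day as a covariate, over 16794 genes that included 40 members. THSD8 and Gm49384, at no more than 0.0831 CPM in any library, did not pass the filter on low counts. A gene was called at a Benjamini-Hochberg adjusted p under 0.05.

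DNA replication begins at origins, where the MCM ring is loaded onto DNA before S phase and later unwinds it as the core of the replicative helicase. Polymerase alpha-primase lays down short RNA-DNA primers, RFC loads the PCNA clamp at them, polymerase epsilon extends the leading strand and polymerase delta the lagging strand, and RPA covers the exposed single strand. Flap endonuclease, ribonuclease H2 and DNA ligase I then turn Okazaki fragments into a continuous strand. Many of these genes are transcribed as cells pass from G1 into S phase, through E2F factors, so that their mRNA is commonly read as a sign of cycling cells.

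Most replication genes were lower in the cells cultured with β-ecdysterone. Of the 35 replication subunits, 30 were called lower and 0 higher, and 22 of the 35 were lower by over 2-fold. Their median log2 fold change was -1.20, beside 0.05 for all genes tested. Of all genes tested, 20.8% were called lower and 22.6% higher, and with the additional limit of 2-fold the shares were 5.98% lower and 13.4% higher. In CPM, all 6 treated libraries lay under their own day's 0 µM library for 31 of the 35 subunits, against 27.8% of all genes tested. With the 2 untreated libraries as control in place of 0 µM, 1 of the 35 subunits was called lower, beside 10.1% of all genes tested, and 8 members that were called lower against 0 µM had log2 fold changes above 0. With those libraries added to 0 µM, 9 of the 35 were called lower, beside 13.2% of all genes tested. Against 0 µM alone, the 5 subunits that were not called were Pold4, Pole3, Pole4, Ssbp1 and Rnaseh1. In whole-culture RNA, fewer cells in S phase and less RNA per cell cannot be told apart.

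**Figure D1:**
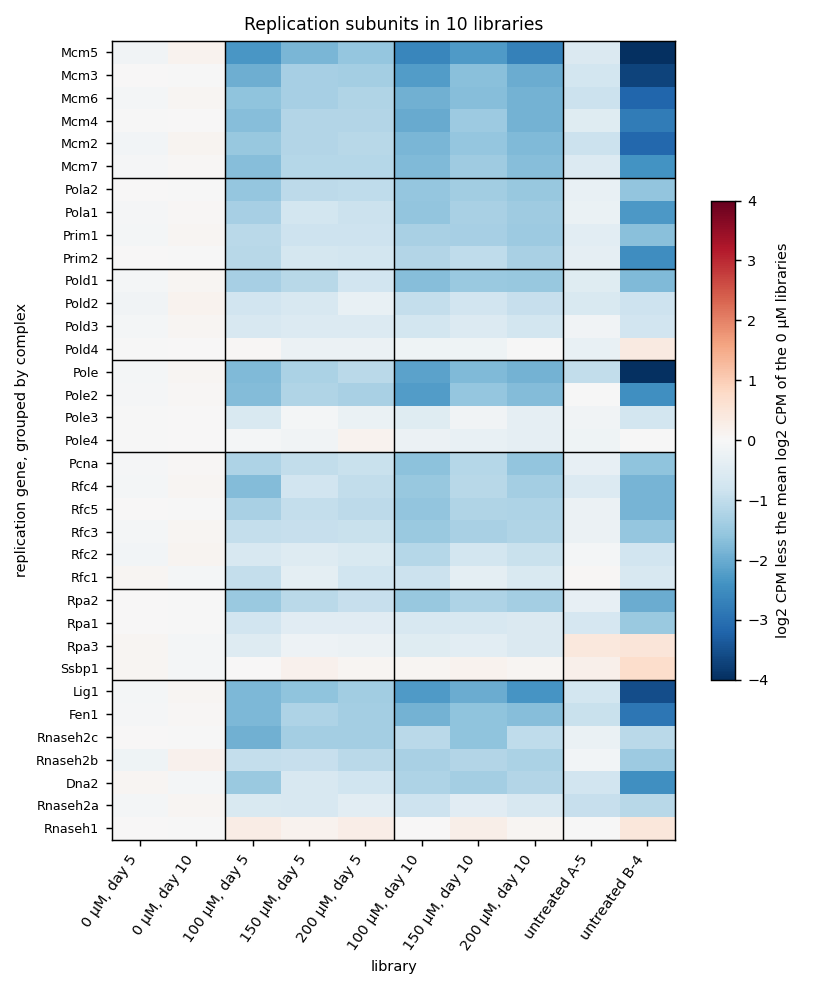
Heat map of the 35 replication subunits (rows, grouped by complex) in 10 libraries (columns); colour is the log2 CPM less the mean log2 CPM of both 0 µM libraries, and colours end at 4 on either side, so Mcm5 and Pole in B-4 lie beyond the scale. The 6 treated columns are blue for most genes and near white for Pold4, Pole4, Ssbp1 and Rnaseh1, the A-5 column is paler and the B-4 column is the darkest for the MCM genes.

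To show what lies at the starts of these genes, promoters of 300 bases (250 before and 50 after the annotated start) were taken from RefSeq (GRCm38.p6), where 29 of the 35 subunits matched, with 35 promoters. Prim2, Pole, Rnaseh2b, Rfc2, Mcm4 and Rnaseh1 did not match. The core E2F motif was searched as TTTCCCGC, TTTCGCGC, TTTGCCGC or TTTGGCGC on both strands, where matches may overlap. It was present in 12 of these 35 promoters (34.3%), which belong to 11 genes, and in 744 of all 32851 promoters (2.26%). The 11 genes with a match were Mcm3, Mcm5, Mcm6, Mcm7, Pola1, Pold1, Pold3, Pole2, Pole4, Rfc3 and Lig1, and their log2 fold changes ran from -2.23 (Mcm5) to -0.16 (Pole4), with a median of -1.47. The 18 matched genes without it ran from -1.58 (Fen1) to 0.10 (Ssbp1), with a median of -1.11. A CCAAT box (CCAAT) stood in 48.6% of the subunit promoters and 37.4% of all, and the cell cycle homology element (TTTGAA or TTCGAA) in 17.1% and 19.2%. Such matches describe the letters in these windows and not binding, and the sets overlap in fold change. The promoter of the gene with the largest change in each complex is shown, where the RefSeq table held it, with Ssbp1 as the single-strand binding protein that was not called; capitals mark the E2F motif, and for Lig1 the 1 of 3 promoters with a match is given.
Mcm5 (chr8:75109259-75109558, plus strand): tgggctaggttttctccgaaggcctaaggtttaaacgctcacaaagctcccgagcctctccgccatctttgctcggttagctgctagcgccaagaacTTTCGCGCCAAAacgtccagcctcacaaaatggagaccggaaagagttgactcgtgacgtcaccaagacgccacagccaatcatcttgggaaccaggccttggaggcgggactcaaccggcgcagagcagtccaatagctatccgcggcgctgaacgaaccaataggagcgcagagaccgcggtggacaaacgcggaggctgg
Lig1 (chr7:13278576-13278875, plus strand): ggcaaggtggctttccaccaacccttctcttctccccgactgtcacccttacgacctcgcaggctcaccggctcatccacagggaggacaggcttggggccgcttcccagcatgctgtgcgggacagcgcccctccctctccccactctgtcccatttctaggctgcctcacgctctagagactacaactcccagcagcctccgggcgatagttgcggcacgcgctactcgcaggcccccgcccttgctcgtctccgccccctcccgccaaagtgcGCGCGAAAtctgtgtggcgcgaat
Pold1 (chr7:44548766-44549065, minus strand): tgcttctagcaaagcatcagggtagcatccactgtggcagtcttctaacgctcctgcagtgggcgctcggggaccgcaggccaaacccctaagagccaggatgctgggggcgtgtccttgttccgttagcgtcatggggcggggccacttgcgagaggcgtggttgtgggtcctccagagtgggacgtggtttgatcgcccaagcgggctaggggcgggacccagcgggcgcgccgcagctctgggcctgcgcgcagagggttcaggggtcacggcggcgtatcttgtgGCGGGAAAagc
Pola2 (chr19:5964157-5964456, minus strand): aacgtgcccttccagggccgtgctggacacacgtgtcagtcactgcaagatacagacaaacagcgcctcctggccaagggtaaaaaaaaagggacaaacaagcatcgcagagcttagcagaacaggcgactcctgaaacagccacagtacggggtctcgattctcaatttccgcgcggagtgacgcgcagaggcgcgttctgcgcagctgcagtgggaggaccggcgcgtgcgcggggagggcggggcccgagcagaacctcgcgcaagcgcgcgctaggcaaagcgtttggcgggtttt
Pcna (chr2:132253131-132253430, minus strand): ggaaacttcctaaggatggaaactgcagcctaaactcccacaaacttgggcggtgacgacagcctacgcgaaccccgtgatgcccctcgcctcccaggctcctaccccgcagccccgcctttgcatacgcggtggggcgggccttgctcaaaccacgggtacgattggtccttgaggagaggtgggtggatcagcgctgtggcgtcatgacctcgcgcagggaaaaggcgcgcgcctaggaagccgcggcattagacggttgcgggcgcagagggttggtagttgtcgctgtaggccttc
Rpa2 (chr4:132768110-132768409, plus strand): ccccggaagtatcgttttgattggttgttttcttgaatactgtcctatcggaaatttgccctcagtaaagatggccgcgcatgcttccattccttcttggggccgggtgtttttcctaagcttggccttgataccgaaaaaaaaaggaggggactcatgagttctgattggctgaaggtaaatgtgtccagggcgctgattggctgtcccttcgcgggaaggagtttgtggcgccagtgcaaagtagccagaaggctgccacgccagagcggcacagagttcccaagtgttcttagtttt
Ssbp1 (chr6:40471218-40471517, plus strand): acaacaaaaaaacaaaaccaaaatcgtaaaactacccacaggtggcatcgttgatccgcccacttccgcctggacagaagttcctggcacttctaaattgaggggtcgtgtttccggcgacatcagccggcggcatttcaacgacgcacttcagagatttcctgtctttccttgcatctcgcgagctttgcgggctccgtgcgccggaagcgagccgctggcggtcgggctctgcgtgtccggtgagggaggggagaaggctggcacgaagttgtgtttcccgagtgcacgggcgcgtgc
In the Mcm5 promoter both strands of the motif overlap in 1 run of capitals. The promoters shown for Pola2, Pcna, Rpa2 and Ssbp1 held no match, although the first 3 of these genes were called lower.

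All 6 MCM genes, which encode the subunits of the ring that unwinds DNA, were lower in treated cells, each by over 2-fold. Mcm5 (chr8:75109569-75128439, GRCm38, plus strand) had the largest change of all 35 subunits. It stood at 148 and 179 CPM in the 0 µM libraries of days 5 and 10. At 100, 150 and 200 µM it stood at 32.4, 45.9 and 55.6 CPM on day 5 and at 26.4, 33.7 and 25.1 CPM on day 10. Every treated library lay below both 0 µM libraries, and the 3 libraries of day 10 and the library at 100 µM on day 5 were the lowest. The treated mean was 36.5 ± 11.9 CPM (SD, n = 6), or 22.3% of the 0 µM mean, with a log2 fold change of -2.23 ± 0.21 (SE; adjusted p = 4.4e-05). Mcm2, one of the subunits that regulate the opening of the ring, fell from 207 and 238 CPM at 0 µM to 77.8, 98.2 and 103 CPM on day 5 and 62.4, 76.5 and 64.7 CPM on day 10 at rising dose, with a log2 fold change of -1.50 ± 0.15 (SE; adjusted p = 5.3e-05). The treated range of Mcm2 did not meet its 0 µM values. For Mcm3 the level was 166 and 163 CPM at 0 µM and 34.997 to 65.9 CPM in treated cells (-1.74 ± 0.18 SE, adjusted p = 5.9e-05 on the log2 scale). Mcm6 moved from 187 and 213 CPM to 52.6 to 86.4 CPM (-1.62 ± 0.14 SE, adjusted p = 2.4e-05). Mcm4 and Mcm7, which with Mcm6 form a core that can unwind DNA by itself, had log2 fold changes of -1.55 ± 0.17 (SE; adjusted p = 9.4e-05) and -1.46 ± 0.16 (SE; adjusted p = 7.8e-05). In FPKM, the mean at 0 µM ran from 34.4 (Mcm4) to 60.000 (Mcm2), a spread of 1.74-fold between subunits of one ring. In treated cells it ran from 10.1 ± 3.53 (SD, n = 6; Mcm5) to 21.1 ± 5.08 (Mcm2), a spread of 2.08-fold, so that Mcm5 passed from a middle place among the 6 to the lowest.

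**Figure D2:**
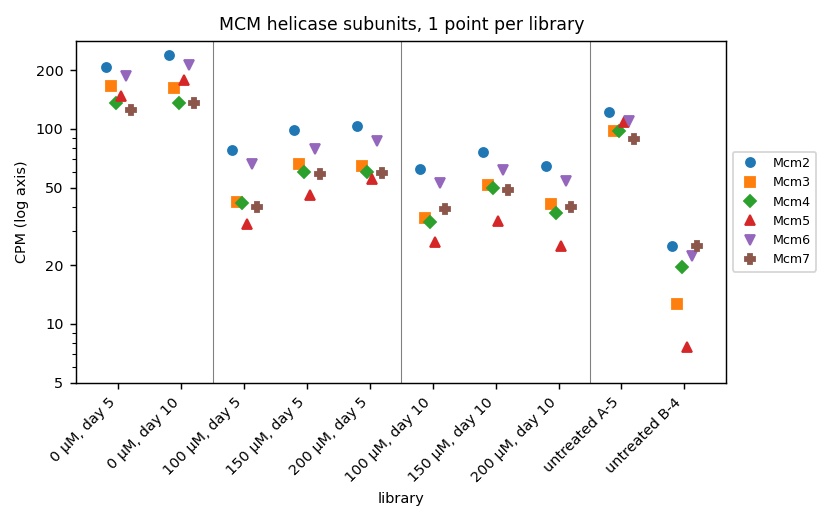
MCM subunits in 10 libraries; the y axis is CPM on a log scale and each symbol is 1 library's value for 1 gene. At 0 µM the genes lie between 125 and 238 CPM, all treated values lie between 25.1 and 103 CPM, and untreated B-4 reaches 7.59 CPM for Mcm5.

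All 4 genes of polymerase alpha-primase, the enzyme that starts each new strand, were called lower. Pola1, the catalytic polymerase subunit, stood at 71.3 and 76.8 CPM at 0 µM, 29.4, 44.5 and 41.1 CPM on day 5 and 24.9, 29.9 and 27.4 CPM on day 10 at rising dose (-1.20 ± 0.16 SE, adjusted p = 0.00031 on the log2 scale). Its 3 values on day 10 were all below the 2 higher values of day 5, and no treated library reached 0 µM. Pola2, the regulatory subunit, fell from 88.4 and 85.8 CPM to 30.1 to 42.9 CPM (-1.33 ± 0.13 SE, adjusted p = 4.2e-05). The small primase subunit gene Prim1, which makes the RNA primer, fell from 68.9 and 77.5 CPM to 26.7 to 41.4 CPM (-1.14 ± 0.13 SE, adjusted p = 0.00012), and the large subunit gene Prim2 from 29.5 and 29.3 CPM to 12.1 to 17.9 CPM (-0.9999 ± 0.13 SE, adjusted p = 0.00023). All 6 treated libraries lay below 0 µM of their own day for each of these 4 genes, as they did for 27.8% of all genes tested. The 4 changes lay within -1.33 and -0.9999 on the log2 scale, a narrower span than in any of the other polymerase complexes.

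Within polymerase delta and polymerase epsilon the subunits differed. The catalytic gene of polymerase delta, Pold1, stood at 70.5 and 77.4 CPM at 0 µM and at 29.7, 34.1 and 43.9 CPM on day 5 and 22.9, 26.2 and 25.8 CPM on day 10 at rising dose, a log2 fold change of -1.32 ± 0.16 (SE; adjusted p = 0.00017). Pold2, the structural B subunit, moved from 44.6 and 53.7 CPM to 25.2 to 39.96 CPM (-0.73 ± 0.15 SE, adjusted p = 0.0036), and Pold3, which binds PCNA, from 25.03 and 28.02 CPM to 15.8 to 18.2 CPM (-0.62 ± 0.10 SE, adjusted p = 0.001). Pold4, the smallest subunit, which is known to be removed by proteolysis after DNA damage, stood at 19.4 and 19.9 CPM at 0 µM and 16.6 to 20.4 CPM in treated cells, and the groups overlapped (-0.13 ± 0.11 SE, adjusted p = 0.39).

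In polymerase epsilon, the catalytic gene Pole stood at 84.02 and 91.7 CPM at 0 µM, 25.999, 36.4 and 42.01 CPM on day 5 and 19.9, 25.8 and 23.8 CPM on day 10 at rising dose (-1.64 ± 0.18 SE, adjusted p = 0.00011). Pole2, the B subunit that helps assemble the helicase at origins, fell from 15.1 and 15.9 CPM to 3.26 to 6.78 CPM (-1.60 ± 0.20 SE, adjusted p = 0.00022). No treated library reached 0 µM for either gene. Pole3 and Pole4 encode small histone-fold subunits that bind histones, and Pole3 is also part of a chromatin remodelling complex. Pole3 stood at a mean of 50.2 CPM at 0 µM and at 32.7 to 47.1 CPM in treated cells; all 6 values lay below 0 µM, and the change missed the threshold (-0.31 ± 0.14 SE, adjusted p = 0.093). Pole4 stood at 42.7 and 44.3 CPM and 33.98 to 48.2 CPM, with the 200 µM library of day 5 above both 0 µM libraries (-0.16 ± 0.11 SE, adjusted p = 0.27). The FPKM spread within the complex was 3.04-fold at 0 µM and 7.36-fold in treated cells, where Pole2 stood at 2.67 ± 0.758 and Pole4 at 19.6 ± 2.93 (SD, n = 6).

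Pcna, the ring-shaped clamp that holds the polymerases on DNA, had the highest level per length of the 35 subunits, with a mean of 133 FPKM at 0 µM and 55.8 ± 13.2 FPKM in treated cells (SD, n = 6). Its counts stood at 214 and 232 CPM at 0 µM, at 94.4, 113 and 121 CPM on day 5 and at 71.5, 102 and 74.6 CPM on day 10 at rising dose (-1.24 ± 0.16 SE, adjusted p = 0.00021 on the log2 scale). The libraries at 100 and 200 µM on day 10 were the lowest, and no treated library reached 0 µM. A Pcna pseudogene, Pcna-ps2, can take part of its reads and is given below. All 5 genes of RFC, the pentamer that opens the clamp and closes it around DNA, were called lower as well. Rfc3, Rfc4 and Rfc5 were lower by over 2-fold, from 28.6 and 32.5 CPM to 10.8 to 16.5 CPM for Rfc3 (-1.13 ± 0.13 SE, adjusted p = 0.00014), from 17.8 and 19.7 CPM to 5.66 to 11.1 CPM for Rfc4 (-1.21 ± 0.21 SE, adjusted p = 0.0016) and from 43.9 and 42.6 CPM to 14.4 to 22.5 CPM for Rfc5 (-1.20 ± 0.13 SE, adjusted p = 6.7e-05). Rfc2 and Rfc1, of which Rfc1 is the large subunit particular to the replicative loader, changed less, with -0.75 ± 0.13 (SE; adjusted p = 0.0013) and -0.65 ± 0.15 (SE; adjusted p = 0.007). Treated levels of Rfc1 spread from 88.5 to 129 CPM, and both 150 µM libraries were the highest.

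The subunits of RPA, the trimer that covers single-stranded DNA, fell by different amounts. Rpa2, the middle subunit and a target of checkpoint kinases, fell from 32.1 and 31.1 CPM at 0 µM to 11.2, 14.9 and 16.9 CPM on day 5 and 10.97, 13.5 and 12.2 CPM on day 10 at rising dose (-1.25 ± 0.14 SE, adjusted p = 0.00012). Rpa1, the large subunit that holds most of the DNA contacts, fell from 165 and 161 CPM to 94.8 to 119 CPM (-0.59 ± 0.09 SE, adjusted p = 0.00088), and Rpa3, the small subunit, from 15.8 and 14.3 CPM to 9.99 to 13.04 CPM (-0.40 ± 0.12 SE, adjusted p = 0.022). None of the 3 overlapped with 0 µM. Ssbp1, the single-strand binding protein of mitochondria, which shares the pathway label but not the nuclear fork, stood at 33.6 and 29.9 CPM at 0 µM and at 32.3, 35.6 and 33.8 CPM on day 5 and 33.8, 34.8 and 33.5 CPM on day 10. Its groups overlapped, and its log2 fold change was 0.10 ± 0.09 (SE, adjusted p = 0.38). A normal approximation from this SE gave a 95% interval of -0.07 to 0.27, which is narrower than the quasi-likelihood test would give.

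Of the 7 enzymes of flaps, RNA primers and ligation, 6 were called lower, beside 20.8% of all genes tested, and Lig1 and Fen1 led. Lig1, the DNA ligase that joins Okazaki fragments (chr7:13277283-13311433, GRCm38, plus strand), stood at 119 and 133 CPM at 0 µM, at 35.95, 41.7 and 47.6 CPM on day 5 and at 26.4, 31.7 and 24.6 CPM on day 10 at rising dose. All treated values lay below 0 µM, and all 3 of day 10 below all 3 of day 5. The log2 fold change was -1.92 ± 0.16 (SE; adjusted p = 1.9e-05), and the treated mean was 27.4% of the 0 µM mean. Fen1, the nuclease that cuts the 5′ flap, fell from 72.9 and 76.3 CPM to 21.7, 31.9 and 29.1 CPM on day 5 and 20.2, 24.6 and 22.98 CPM on day 10 (-1.58 ± 0.14 SE, adjusted p = 2.5e-05), with no overlap. Dna2, the nuclease and helicase that shortens long flaps, was the least abundant subunit per length, with 2.85 FPKM at 0 µM and 1.32 ± 0.364 FPKM in treated cells (SD, n = 6), and fell by 1.08 on the log2 scale (SE 0.20; adjusted p = 0.0017).

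Ribonuclease H2, which removes RNA and single ribonucleotides from DNA, has a catalytic subunit (Rnaseh2a) and a pair of accessory subunits. Rnaseh2c stood at 54.6 and 52.8 CPM at 0 µM, 14.2, 20.95 and 20.9 CPM on day 5 and 25.2, 17.7 and 26.4 CPM on day 10 (-1.37 ± 0.18 SE, adjusted p = 0.00022), and was 1 of 4 subunits with a positive difference of day 10 from day 5. Rnaseh2b fell from 12.3 and 15.9 CPM to 5.62 to 7.43 CPM (-1.13 ± 0.16 SE, adjusted p = 0.00034). The catalytic gene Rnaseh2a fell from 26.2 and 29.4 CPM to 15.8 to 20.6 CPM (-0.60 ± 0.12 SE, adjusted p = 0.0028). In contrast, Rnaseh1, a separate enzyme of nucleus and mitochondria that cuts RNA in longer hybrids, stood at 8.99 and 8.71 CPM at 0 µM and 8.89 to 10.8 CPM in treated cells; each treated library lay above 0 µM of its day, and the change was 0.17 ± 0.13 (SE; adjusted p = 0.31). Exons of 10 subunit genes share bases with a gene on the opposite strand in GENCODE M21, among them 1909 bases of Fen1, 952 of Rfc2, 499 of Rfc5 and 426 of Rnaseh2c. The use of strand in counting was not given in the sources used here, so reads over these bases cannot be told apart. Exons of 5 subunit genes share bases with a gene on the same strand, among them 339 of Rnaseh2a, 286 of Pold4 and 245 of Pole2. Strand would not separate those reads.

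**Figure D3:**
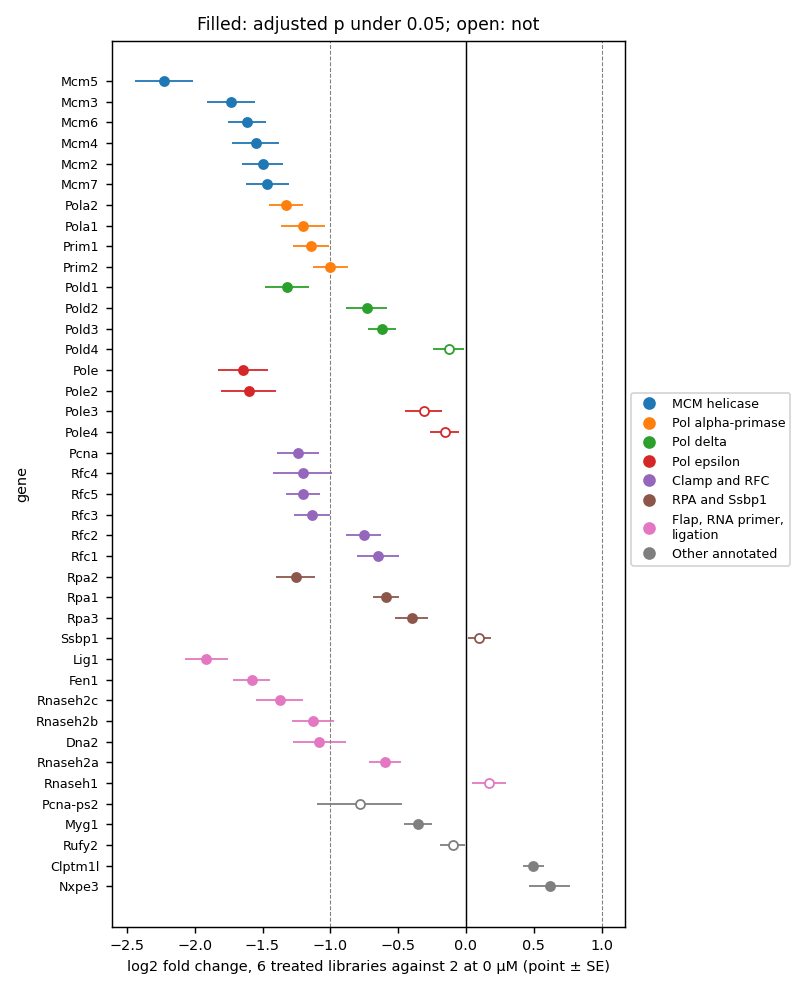
Log2 fold change of the 40 members tested (x axis; points with SE as bars), 6 treated libraries against 2 at 0 µM, coloured by complex; filled points passed an adjusted p of 0.05, and dashed lines mark 2-fold. The MCM genes lie between -2.23 and -1.46, and open points near 0 include Pold4, Pole4, Ssbp1 and Rnaseh1.

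The 7 other annotated genes gave no common direction. By the best match in KEGG, the annotation assigned Myg1 to RFC1, Rufy2 to DNA2 and Clptm1l and THSD8 to the ribonuclease H2 subunit A. It assigned Nxpe3 to the polymerase epsilon catalytic subunit, Gm49384 to Pole2 and Pcna-ps2 to Pcna. On the same strand, Gm49384 shares 245 exon bases with Pole2 and THSD8 shares 339 with Rnaseh2a. Clptm1l, a membrane protein gene, rose from 73.2 and 71.6 CPM at 0 µM to 95.8 to 107 CPM (0.50 ± 0.08 SE, adjusted p = 0.00086). Nxpe3 rose from 7.53 and 5.79 CPM to 8.87 to 11.4 CPM (0.62 ± 0.15 SE, adjusted p = 0.0094). These were the 2 members called higher. Myg1, an exonuclease gene of nucleus and mitochondria, fell from 29.1 and 28.2 CPM to 20.3 to 26.1 CPM (-0.35 ± 0.11 SE, adjusted p = 0.021). Rufy2 stood at 50.9 and 49.99 CPM and 41.6 to 50.9 CPM (-0.10 ± 0.09 SE, adjusted p = 0.40). Pcna-ps2 stood at 2.92 and 1.96 CPM at 0 µM and 0.708 to 2.26 CPM in treated cells (-0.78 ± 0.31 SE, adjusted p = 0.067); its sequence is close to that of Pcna, so its counts are uncertain. Over all 42 members, then, 31 of the 40 tested were called lower and 2 higher, beside 20.8% and 22.6% of all genes tested.

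To set the differences between subunits apart from any scaling of libraries, the ratio of each subunit's count to that of 1 reference subunit of its complex was taken within each library. The references were Mcm2, Pola1, Pold1, Pole, Rfc1, Rpa1 and Rnaseh2a, and 22 ratios were compared by a two-sided exact permutation test over 6 treated and 2 0 µM libraries. With 28 assignments the smallest p is 0.0357, and 11 ratios reached it. No ratio passed adjustment over the 22, where the smallest adjusted p was 0.071 by the exact test, and the ratios were chosen after their values were seen. In polymerase epsilon the log2 ratio of Pole3 to Pole was -0.75 and -0.86 at 0 µM and -0.00 to 0.85 in the treated libraries, and that of Pole4 to Pole was -0.98 and -1.05 at 0 µM and 0.11 to 0.90 in the treated libraries. These differences of 1.32 and 1.49 were the largest of the 22, whereas the ratio of Pole2 to Pole moved by 0.02 (exact permutation p = 0.89). In polymerase delta the log2 ratio of Pold4 to Pold1 was -1.86 and -1.96 at 0 µM and -1.40 to -0.38 in the treated libraries, a difference of 1.18, and the differences for Pold2 and Pold3 were 0.59 and 0.69. These 5 ratios to Pole or Pold1 exceeded the ratio at 0 µM of their own day in each of the 6 treated libraries. In untreated A-5 and B-4 the log2 ratio was 0.02 and 2.80 for Pole3 to Pole and -0.19 and 3.33 for Pole4 to Pole. For Pold4, Pold2 and Pold3 to Pold1 it was -1.70, -0.72 and -1.135 in A-5 and 0.23, 0.36 and -0.48 in B-4. All 5 ratios thus lay above every treated library in B-4. In the MCM ring the log2 ratio of Mcm5 to Mcm2 was -0.48 and -0.41 at 0 µM and -1.36 to -0.89 in the treated libraries. The difference was -0.73, and the ratio lay below 0 µM of the same day in 6 of 6. It was -0.17 in untreated A-5 and -1.72 in untreated B-4. The ratio of Mcm6 to Mcm2, which also reached the smallest p, moved by -0.12. The ratio of Rnaseh2c to Rnaseh2a fell by 0.79, the largest fall of the 22, and lay below 0 µM of the same day in 6 of 6 treated libraries (exact permutation p = 0.071). The ratios of Rfc4 and Rfc5 to Rfc1, of Rpa2 to Rpa1 and of Rnaseh2b to Rnaseh2a fell by 0.58, 0.55, 0.68 and 0.52 on the log2 scale. In polymerase alpha-primase no ratio moved by more than 0.20 (exact permutation p = 0.14 for Prim2 to Pola1).

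**Figure D4:**
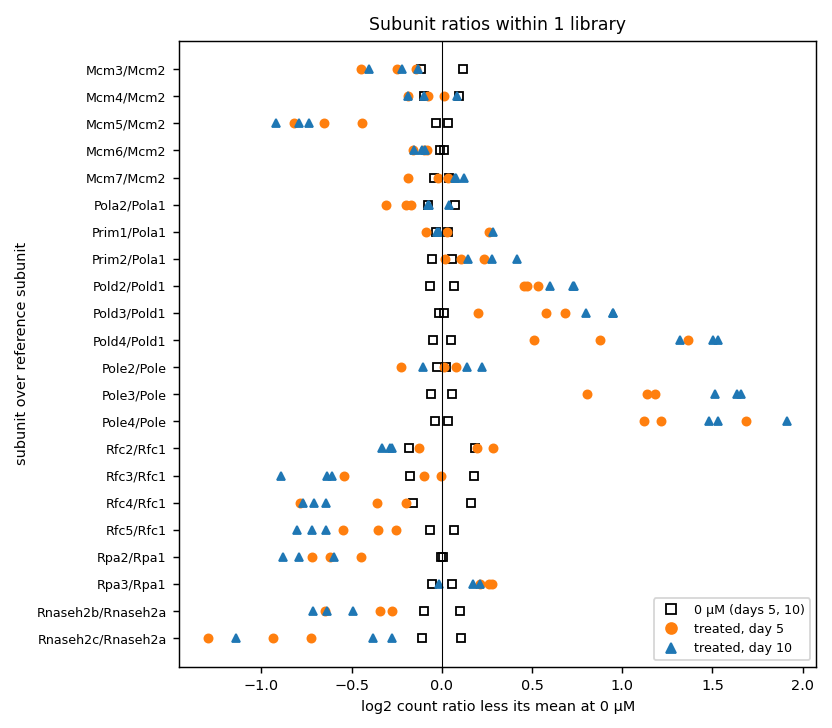
Log2 count ratio of each subunit to the reference subunit of its complex, less the mean of that ratio at 0 µM (x axis), for 22 ratios (y axis); squares are the 2 libraries at 0 µM, circles the treated libraries of day 5 and triangles those of day 10. Pole3, Pole4 and Pold4 lie to the right of 0 in every treated library, and Mcm5, Rpa2 and Rfc5 to the left. The untreated libraries A-5 and B-4 are not drawn.

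Whether the level moved between the days was asked within treated cells, 3 libraries a day. Of the 35 subunits 31 had a negative difference of day 10 from day 5, against 50.1% of all genes tested, with a median of -0.29 over the 40 members. Lig1 alone was called lower on day 10, at -0.60 ± 0.13 (SE; adjusted p = 0.048), and none was called higher; of all genes tested 0.718% were called lower and 2.08% higher. Prim1 stood at the threshold with -0.46 ± 0.10 (SE; adjusted p = 0.05), and Mcm5 had -0.65 ± 0.19 (SE; adjusted p = 0.11). Each dose had 1 library a day, and with dose as a block edgeR called 6 members lower (Mcm2, Mcm6, Pola1, Pold1, Pole and Lig1) and 0 higher, beside 1.5% and 2.87% of all genes tested. DESeq2 called 8 members lower and 0 higher, beside 3.36% and 4.59% of its genes, and edgeR without a filter on low counts also called 8 lower and 0 higher, beside 1.62% and 2.71%. On library totals without TMM edgeR called 7 lower, beside 3.2% of all genes tested, and 1.45% of all genes were called higher, so that the balance of lower and higher calls turned with the scaling. The count fell to 0 when either the 150 or the 200 µM library of day 5, or the 100 or the 200 µM library of day 10, was left out, and rose to 8 lower and 0 higher, beside 1.09% and 1.18% of all genes, without the 100 µM library of day 5. The 8 members called by DESeq2 were Mcm2, Mcm5, Mcm6, Pola1, Prim1, Pold1, Pole and Lig1, and they and the 6 with dose as a block were named after their values were seen. At 0 µM, where each day had 1 library and no test was possible, the median of the 35 subunits lay at -0.04 on day 5 and 0.04 on day 10, on the log2 scale relative to the mean of both.

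No member was called for a treatment effect that differed between the days, while the fitted differences had a median of -0.31 over the 40 members, the effect of day 10 being the more negative. Against 0 µM of the same day, the median log2 difference of the 35 subunits was -1.25, -0.73 and -0.86 at 100, 150 and 200 µM on day 5 and -1.50, -1.29 and -1.35 on day 10. For Mcm5 the fitted log2 fold change was -1.73 on day 5 and -2.65 on day 10, and for Lig1 it was -1.51 and -2.27. The interaction test in edgeR called 0 of 40 members, with 9 at an unadjusted p under 0.05 and a smallest adjusted p of 0.48; DESeq2 also called 0, with 9 at an unadjusted p under 0.05. Of all genes tested 0.0119% were called. Each day has 1 library at 0 µM, so the spread at 0 µM was taken from treated libraries.

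No trend over dose was called. In a model with dose as a number, edgeR called 0 of 40 members and 0% of all genes tested, with 2 members at an unadjusted p under 0.05, and DESeq2 called 0, also with 2. The median slope over the members was 0.11 on the log2 scale for each 50 µM. On day 5, 14 of the 35 subunits rose in order from 100 to 150 to 200 µM, against 13.4% of all genes tested, among them Mcm5, Mcm2, Pold1, Pole, Lig1, Pcna and Rpa2 with the values given above, and 1 fell in order (12.6% of all genes). On day 10, 2 rose and 2 fell in order, against 16.8% and 13.4% of all genes. The lowest of the 3 doses was 100 µM on both days for 22 of the 35 subunits (23 of the 40 members), against 17.4% of all genes tested. These orders were noticed in the data and not tested. On days 5 and 10 the 100 µM libraries held 29833654 and 27108562 counts and the 150 µM libraries 57220036 and 58218009 counts. The 200 µM libraries held 29637936 counts on day 5 and 53666325 on day 10. The part of depth in the order of doses was not tested.

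The 2 untreated libraries differed widely from each other. Mcm5 stood at 109 CPM in A-5 and 7.59 CPM in B-4, Pole at 44.4 CPM in A-5 and 4.30 CPM in B-4, Lig1 at 75.2 CPM in A-5 and 10.7 CPM in B-4 and Pcna at 178 CPM in A-5 and 73.7 CPM in B-4. The ratio of A-5 to B-4 ran from 0.633 (Pold4) to 14.3 (Mcm5) over the 35 subunits, with a median of 2.502. A-5 lay above all 6 treated libraries for 27 of the 35 subunits and below both 0 µM libraries for 28. B-4 lay below all 6 treated libraries for 25. The shares of all genes in these positions were not computed. On the log2 scale, the median difference of the subunits from the 0 µM mean was -0.33 in A-5 and -1.67 in B-4. Over the 15023 genes tested with counts in every library it was -0.01 and 0.04. The subunits that were not lower in B-4 than in A-5 were Pold4, Ssbp1, Rnaseh1, Pole4 and Rpa3, of which all but Rpa3 were also among the 5 not called in treated cells. Ssbp1 stood at 36.8 CPM in A-5 and 51.1 CPM in B-4, and Rpa3 at 20.01 CPM in A-5 and 21.1 CPM in B-4. The members called lower with A-5 and B-4 in place of 0 µM numbered 2 and those called higher 1, beside 10.1% and 9.9% of all genes tested. With both added to 0 µM the counts were 9 and 2, beside 13.2% and 13.8%. The count thus depended on the control used, and a time for the untreated cells was not given in the sources used here.

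Genes that work beside the 42 members were described from lists. Of all genes tested, 20.8% were called lower and 22.6% higher in the same fit. In origin recognition and licensing 5 of 9 genes were called lower and 0 higher. Orc1, the cell cycle-regulated subunit of the origin recognition complex, fell from 17.8 and 20.6 CPM to 3.86 to 5.55 CPM (-2.02 ± 0.15 SE, adjusted p = 1.1e-05), and the licensing factors Cdt1 and Cdc6 had -1.83 ± 0.15 (SE; adjusted p = 1.5e-05) and -1.70 ± 0.21 (SE; adjusted p = 0.00018). The 4 that were not called were Orc2, Orc3, Orc4 and Orc5, between -0.13 and 0.08, named after their values were seen. All 17 genes of helicase activation and fork progression were called lower, with a median of -1.22; Mcm10, which activates the helicase, had -2.02 ± 0.21 (SE; adjusted p = 6.1e-05), and the checkpoint mediator Clspn had -1.65 ± 0.18 (SE; adjusted p = 8.6e-05). Of the partners of MCM in the active helicase, Cdc45 had -0.97 ± 0.14 (SE; adjusted p = 0.00047), Gins1 -1.62 ± 0.20 (SE; adjusted p = 0.00019), Gins2 -0.91 ± 0.29 (SE; adjusted p = 0.029), Gins3 -0.69 ± 0.14 (SE; adjusted p = 0.0035) and Gins4 -0.56 ± 0.13 (SE; adjusted p = 0.0071). Among 5 alternative clamp loader genes 4 were lower, led by Chtf18 (-1.54 ± 0.19 SE, adjusted p = 0.00015) and Dscc1 (-1.12 ± 0.25 SE, adjusted p = 0.0049), both of the loader linked to sister chromatid cohesion.

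In nucleotide supply 7 of 10 genes were called lower and 1 higher, beside 20.8% and 22.6% of all genes tested. Thymidine kinase Tk1 fell from 82.01 and 85.5 CPM to 17.4 to 34.9 CPM (-1.87 ± 0.21 SE, adjusted p = 9.3e-05), the ribonucleotide reductase subunit Rrm2 had -1.36 ± 0.20 (SE; adjusted p = 0.0005) and thymidylate synthase Tyms -1.29 ± 0.18 (SE; adjusted p = 0.00042). The one gene that rose, named after its value was seen, was Samhd1, which breaks down deoxynucleotides, from 95.03 and 107 CPM to 194 to 309 CPM (1.27 ± 0.19 SE, adjusted p = 0.00062). Of 7 genes of chromatin assembly behind the fork 6 were lower, with Asf1b at -2.19 ± 0.19 (SE; adjusted p = 2.3e-05) and Uhrf1 at -1.99 ± 0.21 (SE; adjusted p = 8e-05). All 12 genes of mitosis and proliferation were lower by over 2-fold, beside 5.98% of all genes tested. Among them were Aurkb (-1.89 ± 0.20 SE, adjusted p = 7.7e-05) and Birc5 (-1.83 ± 0.16 SE, adjusted p = 2.1e-05). Mki67 had -1.60 ± 0.22 (SE, adjusted p = 0.0003) and Top2a -1.61 ± 0.20 (SE, adjusted p = 0.00021). On the log2 scale relative to the 0 µM mean, list medians in untreated A-5 and B-4 were -0.54 and -1.41 for nucleotide supply. For chromatin assembly they were -0.61 and -2.72, and for mitosis and proliferation -0.58 and -4.17. In the same order, the treated libraries ran from -1.57 to -0.72, -1.71 to -1.13 and -2.04 to -1.02. These lists were not tested against one another.

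The genes of G1/S control were divided, with 11 of 21 tested called lower and 4 higher. The shares over all genes tested were 20.8% lower and 22.6% higher, for this and the following lists. E2f2 and E2f8 had -2.22 ± 0.22 (SE; adjusted p = 5.5e-05) and -1.85 ± 0.19 (SE; adjusted p = 6.3e-05), and E2f1, an activating E2F factor, fell from 60.97 and 63.3 CPM to 28.03 to 36.8 CPM (-0.97 ± 0.10 SE, adjusted p = 8.2e-05). Of the other E2F genes, named after their values were seen, E2f4 and E2f7 were called lower. E2f6 was called higher (0.43 ± 0.16 SE, adjusted p = 0.049), and E2f3 and E2f5 were not called. The inhibitors Cdkn1a and Cdkn1b were not called, at 0.42 ± 0.17 (SE, adjusted p = 0.067) and 0.12 ± 0.13 (SE, adjusted p = 0.46). Cdkn2c, also named after its value was seen, was called lower (-0.50 ± 0.09 SE, adjusted p = 0.0019). Cdkn1c and Cdkn2a did not pass the filter on low counts. Repair and bypass polymerases were divided as well, 5 of 10 lower and 3 higher, with Poln at 1.203 and 0.823 CPM at 0 µM and 4.40 to 5.44 CPM in treated cells (2.23 ± 0.23 SE, adjusted p = 6.5e-05) and Polm at -1.10 ± 0.16 (SE; adjusted p = 0.00043). In mitochondrial DNA replication 4 of 8 genes were lower and none higher, and none passed 2-fold; Primpol had -0.46 ± 0.12 (SE; adjusted p = 0.012) and Polg -0.39 ± 0.08 (SE; adjusted p = 0.0025).

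**Figure D5:**
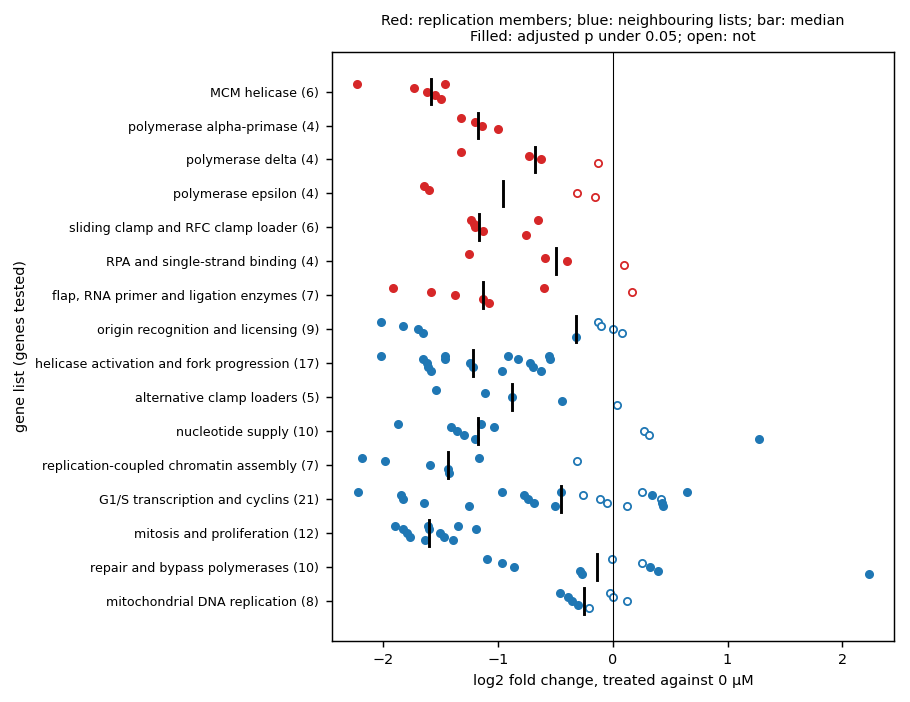
Log2 fold change in treated cells against 0 µM (x axis) for every gene tested in 16 lists (y axis); red points are replication members, blue points genes of the neighbouring lists, filled points passed an adjusted p of 0.05 and black bars are list medians. The medians run from -1.61 (mitosis and proliferation) to -0.14 (repair and bypass polymerases), with -1.58 for the MCM helicase.

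Markers were read to check the labelled cells. Col1a1, the main collagen gene of osteoblasts, stood at 8368 and 10385 CPM at 0 µM and 5979.6 to 11505 CPM in treated cells (0.01 ± 0.20 SE, adjusted p = 0.98), and the osteoblast factors Runx2 and Sp7 rose, from 94.02 and 88.2 CPM to 189.7 to 261 CPM and from 6.06 and 5.03 CPM to 52.7 to 134 CPM. Of the 8 osteoblast markers 4 were called higher (Runx2, Sp7, Alpl and Ibsp) and 1 lower, beside 22.6% and 20.8% of all genes tested. The lower one was Spp1 (-0.56 ± 0.18 SE, adjusted p = 0.032). Alpl, Ibsp and Bglap stood at no more than 0.0633, 0.855 and 0.473 CPM at 0 µM. The summed level of the 8, most of it Col1a1 and Col1a2, was 21930 to 26473 CPM at 0 µM and 16681 to 33854 CPM in treated cells. Of the markers of other cell types, summed levels at 0 µM and in treated cells were 1.87 to 2.01 and 2.37 to 5.56 CPM for 5 adipocyte genes, 1.99 to 2.23 and 4.80 to 9.17 CPM for 5 muscle genes, 0.611 to 0.76 and 2.05 to 2.63 CPM for 4 endothelial genes and 0.348 to 0.552 and 0.157 to 0.965 CPM for 4 epithelial genes. The 5 macrophage genes summed to 17.5 to 30.3 and 31.6 to 62.9 CPM, nearly all of it Lyz2, and Ptprc and Adgre1 were at 0 counts in both 0 µM libraries. Krt18 was at 0 counts in all 10 libraries. The 5 genes of fibroblasts or mesenchymal stroma summed to 3963 to 4235 and 5859.9 to 7721 CPM. The part of these shifts in the levels of replication genes was not tested.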

How the data were processed

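RNA from MC3T3-E1 cells was sequenced by the authors on the Illumina platform after enrichment of mRNA on oligo(dT) beads. The table deposited by the authors holds raw read counts and FPKM values for each gene in 10 libraries. HISAT2 2.0.4 and GATK 3.2-2 are named in the submitters' processing notes; the genome build, the annotation and the counting program were not given in the sources used here. Columns that hold the authors' own comparisons of single libraries were not used. The study states 3 RNA extractions, and 1 library per dose and day was analysed.

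The counts were analysed with edgeR 4.0.16 (TMM factors, filterByExpr, quasi-likelihood test, Benjamini-Hochberg adjustment over all genes tested), with limma 3.58.1 on log2(FPKM + 1) and DESeq2 1.42.0 as alternatives, in R 4.3.3. Tables and figures were made with Python 3.11.15, pandas 2.3.3, numpy 2.4.6 and matplotlib 3.10.9. The test was tested on simulated data. Members were all genes with an Ensembl identifier and the KEGG label for DNA replication; each could be named. From each neighbouring list the 2 called genes with the largest change were named, besides fixed proliferation, licensing and nucleotide genes. A gene that this rule names is not reported here. The members and lists were chosen with earlier results of these data known. Positions are from GENCODE M21 (GRCm38), matched by Ensembl identifier, and promoters from RefSeq (GRCm38.p6). Alternatives were other scalings and filters, no day covariate, other controls, a 2-fold limit, dose as a block and each library left out in turn.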

Additional observations from a re-analysis of the deposited data

Results flagged for a closer look

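The untreated libraries serve as control only in the alternative comparisons. They held 5 member levels over 1.2 times the highest value of the 8 libraries at 0 µM and treated. The share of all genes beyond this limit was not computed, so the count cannot be read as particular to the members. Rpa3, the small RPA subunit, stood at 20.01 CPM in A-5 and 21.1 CPM in B-4, against 15.8 CPM at most at 0 µM and 13.0 CPM at most in treated cells. Ssbp1, the mitochondrial single-strand binding protein, stood at 51.1 CPM in B-4, against 33.6 CPM at most at 0 µM and 35.6 CPM at most in treated cells. Pold4, the smallest subunit of polymerase delta, stood at 25.4 CPM in B-4, against 19.9 CPM at most at 0 µM and 20.4 CPM at most in treated cells. Rufy2, which carries the replication label through its best match in KEGG to DNA2, stood at 65.0 CPM in A-5. It stood at 50.9 CPM at most in the 8 libraries at 0 µM and treated. No time is given for either library, and the difference was not tested. None of the 40 members tested had a treated library apart from the other 5 by Dixon's criterion, and none moved one way in all libraries of day 5 and the opposite way in all of day 10.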

How the results depend on the processing

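The count of members called lower in treated cells was 31 in the fit reported. It lay between 27 and 32 with each of the 8 libraries left out in turn, it was 31 under library totals, DESeq2 size factors, DESeq2, no low-count filter and no day covariate, 32 under limma on log2(FPKM + 1) and 22 with a limit of 2-fold. With the untreated libraries in place of 0 µM it was 2, and with them added to 0 µM it was 9; the cause was not tested. The count called higher was 2, between 1 and 2 with a library left out (1 without 0 µM of day 10, where Nxpe3 was lost), 1 with the untreated libraries in place of 0 µM and 0 with the 2-fold limit. Without 0 µM of day 10 the calls of Pold2 and Rnaseh2a were lost, without 0 µM of day 5 that of Rfc1, and without either those of Rpa3 and Myg1. Pole3 and Pcna-ps2 were called in 1 and 2 alternatives. With the untreated libraries in place of 0 µM, 8 called members changed sign to log2 values of 0.44 (Rpa1), 0.13 (Mcm2), 0.26 (Pole), 0.0117 (Pold2), 0.087 (Prim2), 0.0138 (Mcm6), 0.32 (Dna2) and 0.42 (Rnaseh2a), none of them called (adjusted p from edgeR between 0.06 and 0.99). The count that differed between days in treated cells was 1, and it was 7 under library totals, 6 with dose as a block, 8 without a filter, 8 in DESeq2 and between 0 and 8 with a library left out. Of 560 pairs of a member and an alternative without the untreated libraries, 549 kept both the direction and the side of the threshold and none changed sign. The median of all genes tested was 0.05 and moved to -0.01 under library totals, where that of the subunits moved from -1.20 to -1.26. Without the filter and in DESeq2, which cover more low genes, the median of all genes was 0.27 and 0.29. The median of the subunits was -1.213 and -1.205 in those settings. It was -1.17 without the day covariate and -1.12 under limma on log2(FPKM + 1). Each of the 11 ratios at the smallest exact p kept its sign with each of the 8 libraries left out. This outcome was fixed in advance and lends no support. For these ratios all treated values lay on one side of both 0 µM values. Members below 0 µM of the same day in every treated library numbered 33, and 34 under library totals and in the deposited FPKM; those with 100 µM lowest on both days numbered 23, 25 and 29, an order added after seeing the data. Interaction and dose calls were 0 in edgeR, under library totals and in DESeq2. For treated cells against 0 µM, no paired analysis was possible because the labels number no replicates and each day has 1 library at 0 µM; between the days, dose pairs the treated libraries, and its blocked count is given above. Depth limits Pcna-ps2, Pole2 and Dna2 most, which had the lowest treated CPM of the members tested.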
